A study of Mus musculus with 9 samples.

Results

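Genes of 3 related families that remodel the extracellular matrix were followed over 3 tissues of paclitaxel-treated mice: the matrix metalloproteases (Mmp), the secreted Adamts proteases and the Timps, their tissue inhibitors. The members are the gene symbols of the form Mmp, Adamts or Timp followed directly by a digit. They number 46 of 22609 genes, namely 23 Mmp, 19 Adamts and 4 Timp genes. The tissues were dorsal root ganglia (DRG) of the lumbar levels L3 to L5, which hold the sensory neurons, the spinal cord at lumbar level, called the cord here, and skin punched from the hind paw. Where 3 values stand without tissue names, they are in the order DRG, cord and paw. Each gave 3 samples from male C57 mice aged 8 to 12 weeks. All 9 samples carried the same treatment. It consisted of 2 intraperitoneal injections of paclitaxel, a chemotherapy drug that stabilises microtubules and can cause painful neuropathy, at 2 mg/kg, and an antagonist of the lymphotoxin-beta receptor at 15 µg into the hind paw and 15 µg into the spinal fluid. Tissue was taken 6 days after the last paclitaxel dose. The sample titles place the antagonist on days 1 and 4, whereas the series text has 1 dose between the paclitaxel injections and another 1 day after the last of them. Samples with control IgG or without antagonist are not analysed here, so each comparison is between tissues of treated mice and no treatment effect was tested. Whether the 3 samples came from separate mice is not stated, so the p-values measure only the spread between these samples.

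Mmps and Adamts enzymes are zinc proteases made as inactive proenzymes, and most are secreted. Collagenases open fibrillar collagen, gelatinases degrade the unwound chains, stromelysins act on a broad range of matrix proteins, and membrane-type Mmps act at the cell surface. Adamts enzymes cut proteoglycans, trim procollagens or cleave cartilage oligomeric matrix protein and von Willebrand factor. Timps bind the active site of these proteases and block it. In the nervous system the families are known for remodelling basement membranes after nerve injury, for cleaving the proteoglycans of perineuronal nets, and for processing cell surface receptors.

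A run of 10 Mmp genes lay side by side on mouse chromosome 9, and apart from Mmp8 most of its reads came from paw. In the GRCm38 build the cluster spans chr9:7272514-7699585, which is 427.1 kb, with the genes in the order Mmp13, Mmp12, Mmp1b, Mmp3, Mmp1a, Mmp10, Mmp8, Mmp27, Mmp20 and Mmp7. Promoter sequences were taken from RefSeq on GRCm38.p6, 250 bases before to 50 after the gene start, and were found for 32 of the 46 members. They were searched for the AP-1 motif TGANTCA, which reads the same on both strands, and for the TATA box TATAAA on the strand of the gene. The table holds 12 promoters for the 10 cluster genes, and 8 of the 12 (66.7%) had both motifs, 1 each of Mmp13, Mmp12, Mmp1b, Mmp3, Mmp1a, Mmp10, Mmp20 and Mmp7. The promoters of Mmp8 and Mmp27 and the other promoter of Mmp12 (chr9:7344147-7344446) and of Mmp7 (chr9:7692091-7692390) had neither motif. The first base of the AP-1 motif in the 8 lay between −95 and −35 from the start. That of the TATA box lay at −58 in Mmp20, −49 in Mmp1b, −29 in Mmp10, −28 in Mmp1a and −26 in Mmp7 (the nearer of 2). In Mmp13 it lay at −16, in Mmp3 at −7, and in Mmp12 at 4, past the start. None of the other 22 genes had the AP-1 motif, and 2 of them, Adamts1 and Mmp21, had the TATA box. The motifs and the paw reads did not go together throughout, since Mmp1a, Mmp20 and Mmp7 had both motifs and 0 reads, Mmp27 had neither and 33 reads in paw, and Mmp14, Adamts2, Adamts12, Adamts14 and Timp1, also highest in paw, had neither. Among all 32851 promoters of the table, 7.81% held the AP-1 motif, 8.32% the TATA box and 0.995% both. Genes of a cluster that arose by duplication share sequence and are not independent examples, and a match describes letters, not a bound site.

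The 6 promoters below show 4 cluster genes with both motifs and reads in paw (Mmp13 at chr9:7272264-7272563, Mmp12 at chr9:7347124-7347423, Mmp3 at chr9:7445572-7445871 and Mmp10 at chr9:7502092-7502391, all on the plus strand). The Mmp12 promoter shown is the one with the motifs, and the other, which holds the gene start of the annotation, is not shown. Beside them are 2 genes chosen because they have neither motif and most of their reads in the nervous tissues, Mmp8 from the same cluster (chr9:7558179-7558478, plus strand) and Mmp25 (chr17:23645220-23645519, minus strand). Each is written 5′ to 3′ on the gene's strand, with the motifs in capitals.
Mmp13: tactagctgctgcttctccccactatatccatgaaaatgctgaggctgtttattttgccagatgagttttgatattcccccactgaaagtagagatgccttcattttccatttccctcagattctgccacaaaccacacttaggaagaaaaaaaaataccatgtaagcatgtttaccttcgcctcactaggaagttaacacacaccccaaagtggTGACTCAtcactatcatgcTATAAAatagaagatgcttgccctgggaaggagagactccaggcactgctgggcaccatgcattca
Mmp12: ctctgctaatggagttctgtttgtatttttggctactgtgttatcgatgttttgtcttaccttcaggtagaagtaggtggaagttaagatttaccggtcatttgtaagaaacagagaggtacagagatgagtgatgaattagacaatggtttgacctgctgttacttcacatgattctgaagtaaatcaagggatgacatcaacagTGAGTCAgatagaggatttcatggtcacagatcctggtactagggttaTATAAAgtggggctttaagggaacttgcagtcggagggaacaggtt
Mmp3: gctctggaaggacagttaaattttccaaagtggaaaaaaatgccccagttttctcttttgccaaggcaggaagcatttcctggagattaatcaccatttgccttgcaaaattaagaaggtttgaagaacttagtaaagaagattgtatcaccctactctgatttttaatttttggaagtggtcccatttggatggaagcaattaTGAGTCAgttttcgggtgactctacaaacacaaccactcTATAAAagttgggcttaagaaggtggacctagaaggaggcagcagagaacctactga
Mmp10: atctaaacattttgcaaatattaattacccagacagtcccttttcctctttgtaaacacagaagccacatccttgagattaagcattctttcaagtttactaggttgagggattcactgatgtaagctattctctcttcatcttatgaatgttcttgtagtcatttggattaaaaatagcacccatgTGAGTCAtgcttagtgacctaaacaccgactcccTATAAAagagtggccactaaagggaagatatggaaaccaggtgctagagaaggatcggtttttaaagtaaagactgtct
Mmp8: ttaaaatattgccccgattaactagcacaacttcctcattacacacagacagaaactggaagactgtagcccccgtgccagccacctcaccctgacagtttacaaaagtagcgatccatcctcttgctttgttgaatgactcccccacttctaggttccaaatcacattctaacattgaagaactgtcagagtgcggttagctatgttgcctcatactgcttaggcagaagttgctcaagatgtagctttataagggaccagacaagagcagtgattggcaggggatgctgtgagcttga
Mmp25: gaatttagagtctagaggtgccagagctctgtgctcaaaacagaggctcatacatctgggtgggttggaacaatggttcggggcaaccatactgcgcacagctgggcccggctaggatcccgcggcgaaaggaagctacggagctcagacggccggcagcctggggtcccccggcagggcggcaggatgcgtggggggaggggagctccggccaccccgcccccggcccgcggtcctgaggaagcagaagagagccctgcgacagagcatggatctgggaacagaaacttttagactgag

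**Figure D1:**
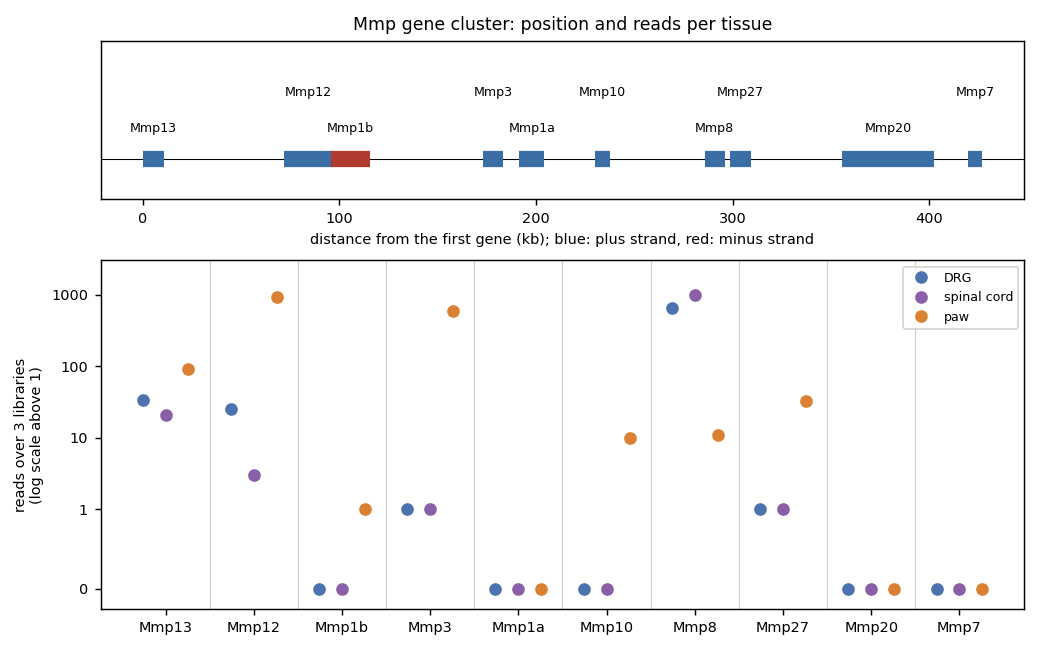
The 10 genes of the chromosome 9 cluster are drawn to scale in kb from the first gene (top), with reads summed over the 3 libraries of each tissue on a log scale above 1 (bottom). Mmp13, Mmp12, Mmp3, Mmp10 and Mmp27 have most reads in paw, Mmp8 has most in the cord and DRG, and Mmp1a, Mmp20 and Mmp7 have 0 reads in every tissue.

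The libraries held 15537545 to 23229724 reads in genes, and levels are given in CPM, the reads of a gene scaled to library size. At these depths 3 reads equal 0.134 to 0.185 CPM. Each tissue carried the markers of its label. The summed CPM of 7 sensory neuron markers lay between 3808 and 4576 in the DRG libraries and did not pass 25.4 elsewhere, 6 astrocyte markers summed to between 3420 and 3701 in the cord, and 6 keratinocyte markers to between 35523 and 52167 in paw. The paw libraries also held skeletal muscle markers, at 13926, 15274 and 18362 CPM. In such bulk tissue, fewer cells of a type and less RNA per cell cannot be told apart. Of the 46 members, 39 had enough reads for a test (17 of 23 Mmp, 18 of 19 Adamts and 4 of 4 Timp genes). Differences are log2 fold changes ± standard error from edgeR's quasi-likelihood test, and a gene was called where its p, adjusted by Benjamini-Hochberg over all 16091 tested genes, was under 0.05.

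The families differed between these tissues in both directions. Of the 39 tested members, 25 passed the test for DRG against the cord, 16 higher and 9 lower in DRG, where 59.6% of all tested genes were called (29.0% higher and 30.6% lower). For paw against DRG the test called 35, with 17 higher and 18 lower in paw, where 80.5% of all genes were called (39.7% higher and 40.8% lower). For paw against the cord it called 34, with 19 higher and 15 lower in paw, where 81.6% of all genes were called (39.9% higher and 41.7% lower). With so large a share of all genes called, these counts say little about the members alone. The sizes of their differences had a median absolute log2 fold change of 1.25, 1.69 and 1.84 in the 3 comparisons against 0.54, 1.14 and 1.17 over all genes. The signed medians were 0.41, −0.21 and 0.57, against −0.02, −0.02 and −0.03. The 3 comparisons share libraries pairwise and are not independent. Of the 39 members, 20 were called in all 3 comparisons, 16 in 2 and 2 in 1 (Adamts9 and Mmp23), and Adamts18 was called in none.

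**Figure D2:**
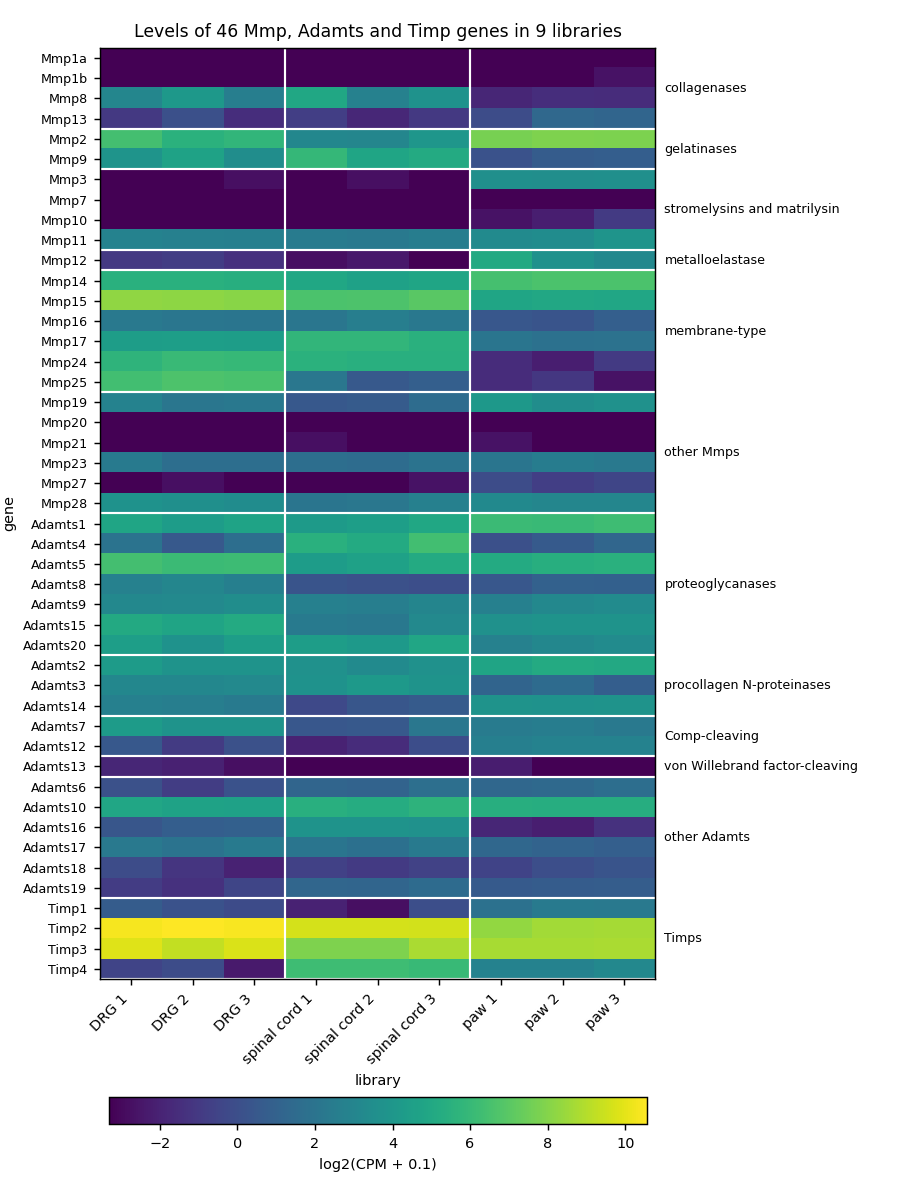
Levels of the 46 genes (rows, grouped by class) in the 9 libraries (columns) on a log2 CPM scale. Timp2 and Timp3 are the brightest rows in all tissues, Mmp25 and Mmp15 are brightest in DRG, Timp4 and Adamts4 in the cord, and Mmp2, Mmp3 and Mmp12 in paw.

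Paw had the most genes that stood at least 2-fold above both other tissues and were called in both comparisons. There were 12 such members of 39 (30.8%, against 20.1% of all tested genes), Mmp2, Mmp3, Mmp12, Mmp13, Mmp14, Mmp19, Mmp27, Adamts1, Adamts2, Adamts12, Adamts14 and Timp1. DRG had 5 (12.8%, against 7.00%), Mmp15, Mmp25, Adamts7, Adamts8 and Adamts15. Spinal cord had 5 (12.8%, against 9.71%), Mmp9, Mmp17, Adamts4, Adamts16 and Timp4. These shares are descriptions of a small list and carry no test.

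To compare levels between genes, CPM were divided by transcript length in kb, taken from GENCODE vM21. On that scale Timp2 led in every tissue, with 377 CPM per kb in DRG, 217 in the cord and 100.5 in paw. It made up 50.6%, 51.0% and 25.9% of the summed level of the 46 genes. Timp3 came next in all 3 tissues, at 171, 64.8 and 91.0 CPM per kb. The most abundant protease was Mmp15 in DRG (56.0 CPM per kb) and in the cord (21.3), and Mmp2 in paw (72.3). Summed per kb, the Mmp genes stood at 154 ± 9.11 in DRG, 82.9 ± 11.9 in the cord and 145 ± 4.66 in paw, and the Timp genes at 550 ± 9.79, 295 ± 21.5 and 198 ± 16.6 (SD, n = 3). The Adamts sum was 41.2 ± 4.51, 47.1 ± 10.5 and 44.4 ± 1.64, and the libraries of the 3 tissues overlapped.

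Among the collagenases, Mmp8, the neutrophil collagenase, and Mmp13, the main interstitial collagenase of rodents, had opposite tissues. Mmp8 was at 8.22, 16.7 and 5.94 CPM in DRG, 30.6, 6.67 and 13.1 in the cord and 0.180, 0.247 and 0.236 in paw. It was lower in paw than in DRG (−5.50 ± 0.93, adjusted p = 0.000638) and than in the cord (−6.21 ± 0.91, adjusted p = 0.000252), with no overlap of libraries, and DRG and the cord overlapped (−0.71 ± 0.56, adjusted p = 0.308). Without spinal cord 1, where it was 4.58 times its lowest level in that tissue, the difference of paw from the cord was −5.42. Mmp13 was a low gene with 9, 20 and 5 reads in DRG, 10, 4 and 7 in the cord and 14, 40 and 37 in paw. Its paw level was above DRG (1.75 ± 0.52, adjusted p = 0.00897, and 2.47 without DRG 2) and above the cord (2.33 ± 0.56, adjusted p = 0.00245, and 3.27 without spinal cord 1 and 3), although 1 DRG library lay above the lowest paw library. Of the other collagenases, Mmp1a had 0 reads and Mmp1b 1 read, in paw.

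The gelatinases also divided by tissue. Mmp2, gelatinase A, which is typical of fibroblasts, was at 84.5, 46.8 and 56.9 CPM in DRG, 8.50, 8.26 and 15.5 in the cord and 207, 238 and 224 in paw. All paw libraries lay above all DRG libraries (1.83 ± 0.26, adjusted p = 0.000131), and these above all spinal cord libraries (2.55 ± 0.28, adjusted p = 4.59e-05). Mmp9, gelatinase B, a granule protein of neutrophils, ran the other way, at 14.7, 25.6 and 10.9 CPM in DRG, 60.8, 28.3 and 35.8 in the cord and 1.02, 1.54 and 1.65 in paw. It was lower in paw than in DRG (−3.60 ± 0.47, adjusted p = 8.76e-05) and than in the cord (−4.88 ± 0.47, adjusted p = 9.43e-06). DRG was lower than the cord (−1.29 ± 0.36, adjusted p = 0.0129), a call that was lost when DRG 1 was left out (adjusted p = 0.0512) or the pair of spinal cord 1 and 3 (adjusted p = 0.133). Markers of marrow neutrophils moved with Mmp8 and Mmp9. The 8 of them summed to 202, 469 and 171 CPM in DRG, 837, 231 and 266 in the cord and 6.17, 9.87 and 11.2 in paw. All 8 were highest in DRG 2 within DRG and in spinal cord 1 within the cord, the libraries where Mmp8 and Mmp9 were also highest, and 2 or 3 of the 8 had 0 reads in each paw library. Spinal cord 1 was also the highest of its tissue for all 4 erythroid markers, which summed to 124, 9.38 and 18.1 CPM in the cord and 16.3, 13.8 and 8.96 in DRG. Of 6 skeletal muscle markers, 5 were highest in DRG 2 and 5 in spinal cord 1, with sums of 589, 897 and 31.9 CPM in DRG and 58.6, 14.4 and 13.9 in the cord. The part of RNA from neutrophils, other blood or marrow cells or muscle in the levels of Mmp8 and Mmp9 was not tested.

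**Figure D3:**
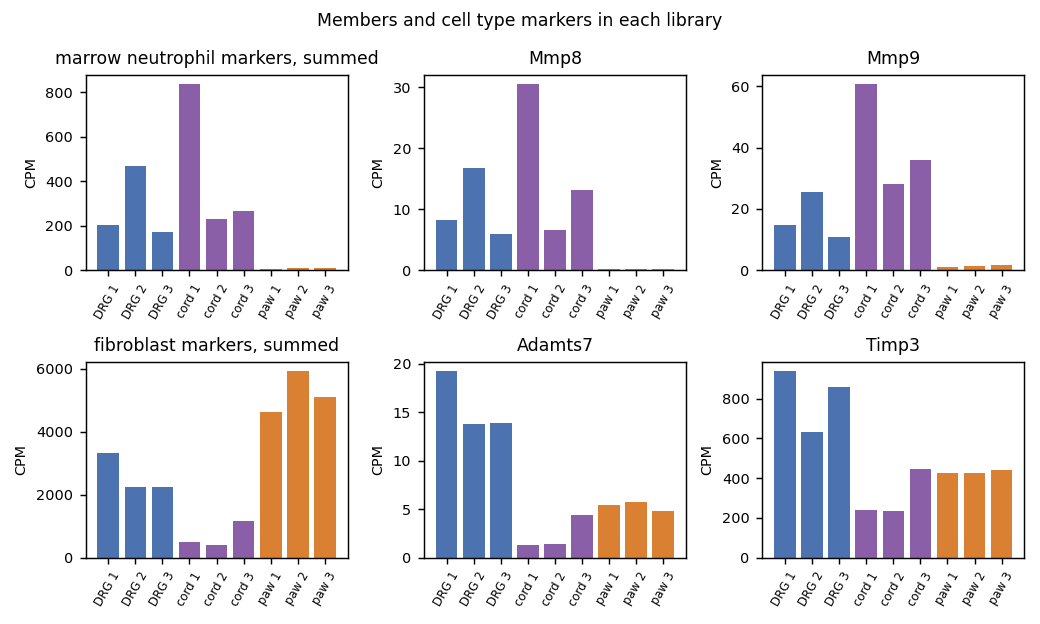
CPM in each library of the summed marrow neutrophil markers beside Mmp8 and Mmp9 (top) and of the summed fibroblast markers beside Adamts7 and Timp3 (bottom), coloured by tissue. Spinal cord 1 is the tallest bar of the 3 upper panels, and spinal cord 3 is the tallest spinal cord bar of the 3 lower panels.

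Of the stromelysins and the metalloelastase, Mmp3, Mmp10 and Mmp12 were found mainly in paw, and Mmp11 in all 3 tissues. Mmp3, stromelysin-1, which also activates other Mmps, had 197, 189 and 204 reads in the paw libraries, 0, 0 and 1 in DRG and 0, 1 and 0 in the cord. The paw level was 11.8 ± 0.177 CPM, with the smallest SD for its mean among the 12 paw genes. With 1 read in each other tissue the ratio is wide, 749 against DRG (95% counting interval 134 to 29615) and 696 against the cord (124 to 27535). Mmp12, the macrophage elastase, stood at 35.0, 12.7 and 8.95 CPM in paw, 0.402, 0.483 and 0.297 in DRG and 1, 2 and 0 reads in the cord. Paw 1 was 3.91 times the lowest paw library, but all paw libraries lay above the others. The difference of paw from DRG was 5.56 ± 0.62 (adjusted p = 2.18e-05), and 4.74 without paw 1, and the ratio to the cord was 370 (126 to 1799). The fitted log2 fold change of paw against the cord, which rests on 3 cord reads, was 8.36 ± 0.84, and it was 7.55 without paw 1, 9.17 without spinal cord 2 and 7.59 without spinal cord 1 and 3. The 25 reads of DRG against 3 of the cord gave a ratio of 7.75 (2.36 to 40.1) that was not called (adjusted p = 0.114). Its 3′ neighbour Mmp1b, which shares 157 exon bases with it on the opposite strand, had 1 read. Mmp10, stromelysin-2, had 1, 2 and 7 reads in paw and 0 elsewhere, at least 4.23-fold above DRG and 3.93-fold above the cord with a floor of 3 reads per tissue. Mmp11, stromelysin-3, was at 6.56 ± 0.420 CPM in DRG, 5.34 ± 0.525 in the cord and 11.6 ± 2.35 in paw, higher in paw than in DRG (0.82 ± 0.17, adjusted p = 0.000659) and the cord (1.12 ± 0.17, adjusted p = 6.44e-05). Mmp7, the matrilysin, had 0 reads.

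Of the 6 membrane-type Mmps, 5 were lower in paw than in both nervous tissues, and Mmp14 was higher. Over all tested genes, 40.8% were called lower in paw than in DRG and 41.7% lower than in the cord. Mmp14, which activates pro-Mmp2 at the cell surface together with Timp2, was at 45.1, 44.9 and 42.1 CPM in DRG, 30.7, 24.0 and 28.5 in the cord and 86.7, 100.3 and 97.8 in paw. Its tissue order was that of Mmp2, paw above DRG (1.11 ± 0.11, adjusted p = 1.46e-06) and DRG above the cord (0.67 ± 0.11, adjusted p = 0.000248). Mmp15 had another order, with 303, 289.9 and 269.5 CPM in DRG, 98.5, 102 and 127 in the cord and 28.5, 31.5 and 29.9 in paw. Mmp15 was higher in DRG than in the cord (1.40 ± 0.11, adjusted p = 6.73e-07) and lower in paw than in DRG (−3.26 ± 0.12, adjusted p = 2.51e-10). Mmp24, known in mouse for cleaving cadherins in sensory neurons, was at 52.5, 67.6 and 63.3 CPM in DRG and 46.3, 43.6 and 43.3 in the cord. In paw it had 4, 2 and 7 reads, and the difference from DRG was −7.84 ± 0.22 (adjusted p = 3.88e-11) and from the cord −7.38 ± 0.22 (adjusted p = 5.58e-11). The smaller difference between DRG and the cord (0.46 ± 0.13, adjusted p = 0.00796) was not called without spinal cord 1 and 3 (adjusted p = 0.0509). Its opposite-strand neighbour BC029722, with 637 shared exon bases, was at 35.8, 82.3 and 25.5 CPM, and its part in the Mmp24 counts was not tested.

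Mmp25, a protease held to the membrane by a lipid anchor and first described in leukocytes, was the most DRG-restricted of the 39 tested genes by its fold over the next tissue. It was at 83.2, 101 and 95.3 CPM in DRG, 4.50, 1.35 and 1.72 in the cord and 0.239, 0.370 and 0.0589 in paw. The DRG level was above the cord by 5.20 ± 0.37 (adjusted p = 2.05e-06), and by 5.93 without spinal cord 1. The log2 fold change of paw against DRG was −8.68 ± 0.51 (adjusted p = 1.85e-07) and that of paw against the cord −3.48 ± 0.68 (adjusted p = 0.00102), the latter −2.74 without spinal cord 1, where its level was 3.33 times the lowest of that tissue. Mmp25 was highest in DRG 2 within DRG and in spinal cord 1 within the cord, where all 8 marrow neutrophil markers were also highest. Its DRG libraries lay between 83.2 and 101 CPM and the neutrophil marker sum there between 171 and 469. The part of neutrophil RNA in the Mmp25 level was not tested. Mmp17, also lipid-anchored, was highest in the cord, at 56.2, 55.6 and 44.9 CPM, with 21.0, 22.1 and 21.2 in DRG and 4.13, 3.52 and 3.71 in paw. DRG was below the cord (−1.29 ± 0.11, adjusted p = 1.28e-06) and paw below DRG (−2.50 ± 0.13, adjusted p = 4.64e-09). Mmp16 was low, at 4.38 ± 0.311, 4.94 ± 0.904 and 1.38 ± 0.344 CPM, and was lower in paw than in DRG (−1.66 ± 0.23, adjusted p = 3.58e-05) and the cord (−1.84 ± 0.23, adjusted p = 1.43e-05).

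Mmp19, which degrades basement membrane proteins, was at 6.93, 4.25 and 4.65 CPM in DRG, 1.30, 1.49 and 2.93 in the cord and 17.1, 11.2 and 12.7 in paw, with paw above DRG (1.37 ± 0.28, adjusted p = 0.000825) and DRG above the cord (1.49 ± 0.32, adjusted p = 0.00183). Mmp28, epilysin, was highest in DRG, at 13.4, 11.8 and 10.6 CPM, with 4.15, 4.39 and 6.60 in the cord and 9.34, 8.02 and 8.19 in paw. It was called in all 3 comparisons, but the difference of paw from DRG was small (−0.49 ± 0.18, adjusted p = 0.0268) and its call was lost with upper quartile factors or without any 1 of 4 libraries, DRG 1 or 2 and paw 2 or 3 (adjusted p up to 0.0987). Mmp23 was at 3.74 ± 1.06, 3.27 ± 0.410 and 4.86 ± 0.804 CPM, with 1 call, paw against the cord (0.57 ± 0.23, adjusted p = 0.038), which reached an adjusted p of 0.123 without paw 2. Mmp27 had 33 reads in paw and 1 in each other tissue, a ratio of 41.9 to DRG (7.01 to 1703) and 38.9 to the cord (6.52 to 1584). Mmp20, the enamel protease enamelysin, had 0 reads, and Mmp21 had 1 in the cord and 1 in paw.

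**Figure D4:**
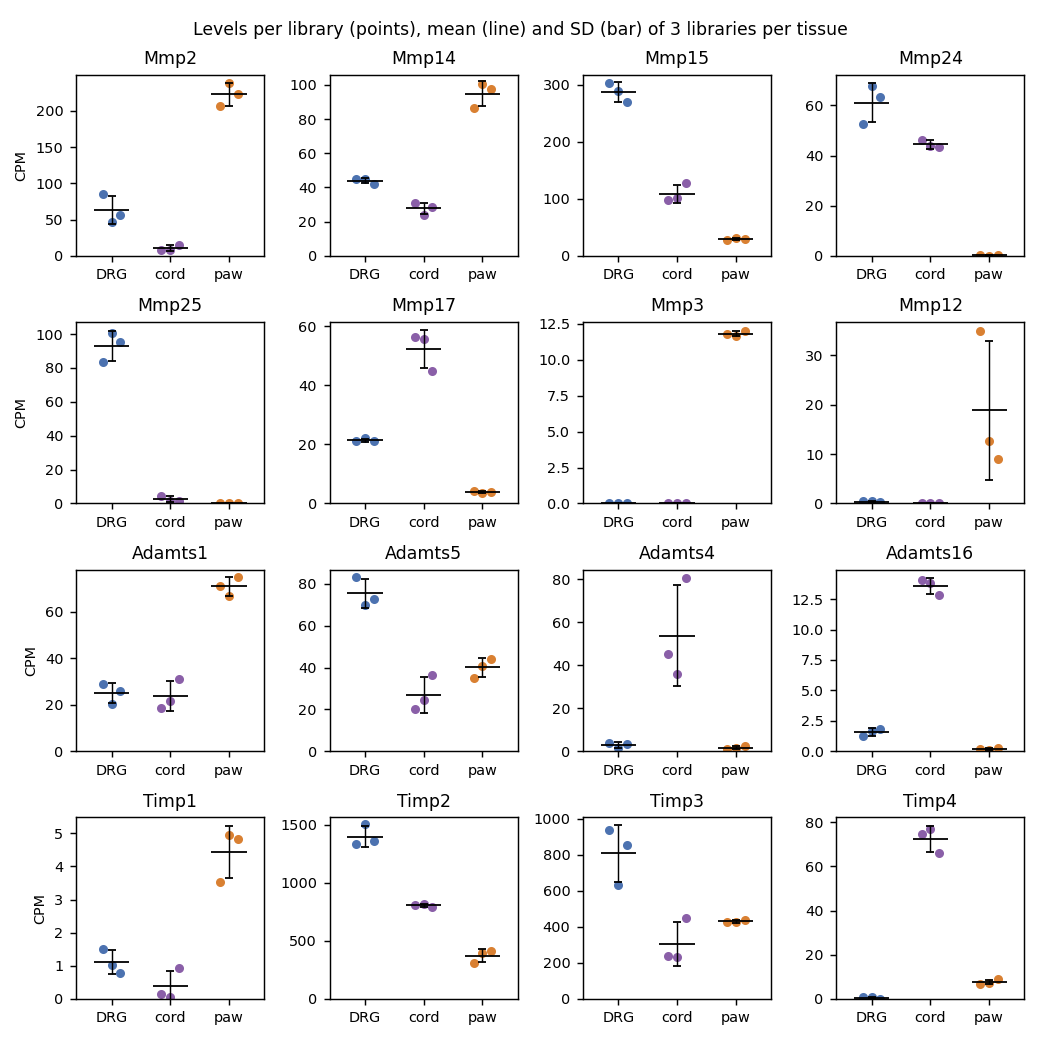
CPM of 16 genes in each library (points), with the mean (line) and SD (bar) of the 3 libraries per tissue. Mmp25 stands high in DRG, Timp4, Adamts4 and Adamts16 in the cord, and Mmp2, Mmp3 and Mmp12 in paw, and wide bars are seen for Mmp12 in paw and Adamts4 in the cord.

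The 7 Adamts proteoglycanases, which cut aggrecan, brevican and versican, did not share a tissue. Adamts1 was highest in paw, at 70.8, 66.6 and 75.0 CPM, against 28.8, 20.2 and 26.05 in DRG (2.83-fold, adjusted p = 1.17e-05) and 18.7, 21.7 and 30.8 in the cord (1.58 ± 0.18, adjusted p = 7.51e-06). Adamts5, the main aggrecanase of mouse cartilage, was highest in DRG, at 83.5, 70.1 and 72.8 CPM, with 20.1, 24.3 and 36.3 in the cord and 35.2, 40.9 and 44.1 in paw. Adamts5 was higher in DRG than in the cord (1.49 ± 0.19, adjusted p = 4.97e-05) and lower in paw than in DRG (−0.91 ± 0.19, adjusted p = 0.000851), and its call between paw and the cord (0.58 ± 0.19, adjusted p = 0.0149) was lost without spinal cord 2 or paw 3. Adamts15 followed the order of Adamts5, at 32.6 ± 4.30 CPM in DRG, 13.6 ± 0.547 in paw and 6.34 ± 2.57 in the cord. Its DRG level was above the cord by 2.38 ± 0.22 (adjusted p = 4.41e-06) and its paw level below DRG (−1.26 ± 0.21, adjusted p = 0.000201). Adamts8 was at 7.03 ± 1.05 CPM in DRG, 1.00 ± 0.0927 in the cord and 1.64 ± 0.336 in paw, higher in DRG than in the cord (2.80 ± 0.22, adjusted p = 8.20e-07) and lower in paw than in DRG (−2.09 ± 0.21, adjusted p = 2.50e-06). The call between paw and the cord (0.71 ± 0.25, adjusted p = 0.0201) was lost in limma-voom, without paw 2, without paw 3 and without spinal cord 1 and 3.

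Adamts4, known in the mouse brain from mature oligodendrocytes, was a spinal cord gene. It was at 45.3, 35.7 and 80.4 CPM in the cord, 3.80, 1.35 and 3.12 in DRG and 0.958, 1.42 and 2.30 in paw. Spinal cord lay above DRG (−4.28 ± 0.44, adjusted p = 4.20e-05, DRG minus the cord) and above paw (−5.10 ± 0.49, adjusted p = 9.60e-06, paw minus the cord), and DRG and paw overlapped (−0.82 ± 0.55, adjusted p = 0.195). The DRG difference was −3.54 without DRG 2 and spinal cord 3 and −3.67 without spinal cord 1 and 3, and the paw difference −4.49 without spinal cord 1 and 3. Spinal cord 3 was the highest library for Adamts4 and the lowest for the 6 oligodendrocyte markers, which summed to 2602, 2783 and 2201 CPM in the cord, 187, 131 and 136 in DRG and 12.5, 12.3 and 13.5 in paw. In DRG, Mag alone gave 185, 130 and 134 CPM of these sums, and Mog and Mobp averaged 0.113 and 1.01 CPM. Spinal cord 3 was also the highest spinal cord library for fibroblast and Schwann markers, and their part in Adamts4 was not tested. Adamts20 was at 19.1 ± 4.73 CPM in DRG, 23.1 ± 5.94 in the cord and 8.49 ± 1.78 in paw, and was called lower in paw than in DRG (−1.17 ± 0.24, adjusted p = 0.00101) and the cord (−1.44 ± 0.24, adjusted p = 0.000213). Adamts9 was at 9.74 ± 1.31, 6.80 ± 0.957 and 8.41 ± 1.88 CPM, and its 1 call, DRG above the cord (0.52 ± 0.19, adjusted p = 0.0325), was lost under 5 of the alternatives run, among them leaving out DRG 3, spinal cord 1 or spinal cord 2 in turn (adjusted p up to 0.127).

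The 3 procollagen N-proteinases, which remove the amino-terminal propeptide of fibrillar procollagens, had 2 patterns. Adamts2, the main enzyme for procollagen I in skin, was at 19.6, 13.9 and 13.8 CPM in DRG, 12.9, 9.70 and 13.0 in the cord and 27.7, 35.2 and 32.7 in paw, above DRG by 1.01 ± 0.17 (adjusted p = 0.000148) and above the cord by 1.43 ± 0.17 (adjusted p = 9.41e-06). Adamts14 was at 13.6 ± 0.341 CPM in paw, 5.82 ± 0.706 in DRG and 1.15 ± 0.375 in the cord, with paw above DRG (1.22 ± 0.18, adjusted p = 5.94e-05) and DRG above the cord (2.34 ± 0.22, adjusted p = 3.12e-06). Adamts3 had the reverse order, at 13.6, 17.9 and 13.8 CPM in the cord, 8.45, 8.54 and 9.31 in DRG and 2.10, 2.78 and 1.65 in paw, with paw below DRG (−2.01 ± 0.20, adjusted p = 1.89e-06) and DRG below the cord (−0.79 ± 0.17, adjusted p = 0.00199). Of the pair that cleaves cartilage oligomeric matrix protein, Adamts7 was at 19.3, 13.8 and 13.9 CPM in DRG, 1.25, 1.35 and 4.42 in the cord and 5.39, 5.74 and 4.77 in paw. Spinal cord 3 was 3.53 times the lowest of its tissue, and the difference of DRG from the cord rose from 2.77 ± 0.40 (adjusted p = 0.000182) to 3.59 without it. Paw was below DRG (−1.56 ± 0.37, adjusted p = 0.00273). It was above the cord by 1.21 ± 0.41 (adjusted p = 0.02), by 2.05 without spinal cord 3, and the call was lost without any 1 of the libraries spinal cord 1, spinal cord 2, paw 1 and paw 2. Adamts12 was at 6.17, 7.10 and 7.01 CPM in paw and had 58 reads in all in DRG and 23 in the cord, with paw above DRG (2.88 ± 0.42, adjusted p = 5.73e-05) and the cord (4.07 ± 0.48, adjusted p = 8.96e-06, and 5.12 without spinal cord 3).

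Among the remaining Adamts genes, Adamts16, an enzyme with few known substrates, stood out in the cord. It was at 14.1, 13.8 and 12.9 CPM there, 1.21, 1.69 and 1.83 in DRG and 0.180, 0.123 and 0.294 in paw, with DRG below the cord (−3.11 ± 0.20, adjusted p = 1.29e-07) and paw below DRG (−2.93 ± 0.33, adjusted p = 5.82e-06). Adamts10, which binds fibrillin, differed by under 2-fold between the tissues, at 26.5 ± 3.16, 43.8 ± 5.45 and 40.3 ± 1.40 CPM. It was lower in DRG than in the cord (−0.73 ± 0.12, adjusted p = 0.000239) and than in paw (0.61 ± 0.12, adjusted p = 0.000497, paw minus DRG). Adamts17 was at 4.57 ± 0.717, 4.26 ± 0.914 and 2.05 ± 0.343 CPM, lower in paw than in DRG (−1.16 ± 0.23, adjusted p = 0.000647) and the cord (−1.05 ± 0.23, adjusted p = 0.00132, adjusted p = 0.0565 without spinal cord 1 and 3). Adamts6 and Adamts19 were lowest in DRG. Adamts6 was at 0.835 ± 0.307, 2.49 ± 0.632 and 2.70 ± 0.376 CPM, with DRG below the cord (−1.56 ± 0.31, adjusted p = 0.00122) and paw above DRG (1.69 ± 0.32, adjusted p = 0.000402). Adamts19 was at 0.460 ± 0.177, 2.42 ± 0.295 and 1.52 ± 0.0786 CPM, with DRG below the cord (−2.38 ± 0.30, adjusted p = 3.27e-05), paw above DRG (1.72 ± 0.31, adjusted p = 0.000306), and a call between paw and the cord (−0.66 ± 0.26, adjusted p = 0.0346) that was lost under 9 alternatives (adjusted p up to 0.218). Adamts18 had 29, 30 and 44 reads and was not called. Adamts13, the von Willebrand factor protease made mainly in liver, had 8 reads in DRG, 0 in the cord and 2 in paw.

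Each of the 4 Timps had its own order of tissues. Timp2, which besides inhibition takes part in the activation of pro-Mmp2, was at 1333, 1504 and 1359 CPM in DRG, 811, 816 and 788 in the cord and 311, 398 and 409.5 in paw. The groups did not overlap, with DRG above the cord (0.80 ± 0.12, adjusted p = 0.000186) and paw below DRG (−1.91 ± 0.13, adjusted p = 5.39e-08) and the cord (−1.11 ± 0.12, adjusted p = 5.44e-06). Timp2 was lowest in paw, where Mmp2 and Mmp14, the partners of this activation, were highest. Between the nervous tissues, Timp2, Mmp2 and Mmp14 were all higher in DRG than in the cord. Timp3, the matrix-bound inhibitor of Adamts and Adam enzymes, was at 938, 631 and 856 CPM in DRG, 237, 234 and 447 in the cord and 425, 425 and 439 in paw. Timp3 was higher in DRG than in the cord (1.40 ± 0.25, adjusted p = 0.000602) and lower in paw than in DRG (−0.91 ± 0.24, adjusted p = 0.00519). Paw and the cord overlapped through spinal cord 3 (0.49 ± 0.24, adjusted p = 0.0829), and without that library paw was above the cord by 0.90 (adjusted p = 0.000321). DESeq2 and limma-voom called this difference on all libraries (adjusted p = 0.0465 and 0.0386).

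Timp4, the most restricted inhibitor and best known from heart and brain, was at 74.7, 76.9 and 66.0 CPM in the cord, 6.88, 7.10 and 8.78 in paw and 0.626, 0.821 and 0.0990 in DRG. All 3 groups were apart, with DRG below the cord (−7.11 ± 0.30, adjusted p = 1.02e-08) and paw above DRG (3.85 ± 0.33, adjusted p = 7.73e-07) but below the cord (−3.26 ± 0.22, adjusted p = 1.18e-07). Timp1, the inducible inhibitor, was low everywhere, at 3.53, 4.94 and 4.83 CPM in paw, 1.52, 1.01 and 0.792 in DRG and 0.150, 0.0467 and 0.918 in the cord. Paw was above DRG (1.99 ± 0.50, adjusted p = 0.00345) and above the cord (3.65 ± 0.59, adjusted p = 0.000157, and 5.46 without spinal cord 3). The difference of DRG from the cord (1.66 ± 0.65, adjusted p = 0.0474) was 3.45 without spinal cord 3 (adjusted p = 0.000398). Its call was lost without any 1 of the other libraries (adjusted p from 0.052 to 0.153). It was also lost with upper quartile factors, DESeq2 size factors in edgeR and the replicate block. Timp1, Timp3 and Timp4 lie inside the synapsin genes Syn1, Syn3 and Syn2 on the opposite strand, with 0, 1733 and 90 shared exon bases, and the strand setting of the counting is not given in the sources used here. Syn2 was at 228 CPM in DRG, where Timp4 was at 0.515 CPM, and the part of Syn2 reads in the Timp4 counts was not tested. Syn3 was at 16.1, 69.5 and 1.43 CPM, lowest in paw, and part of its reads and those of Timp3 cannot be told apart without strand.

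**Figure D5:**
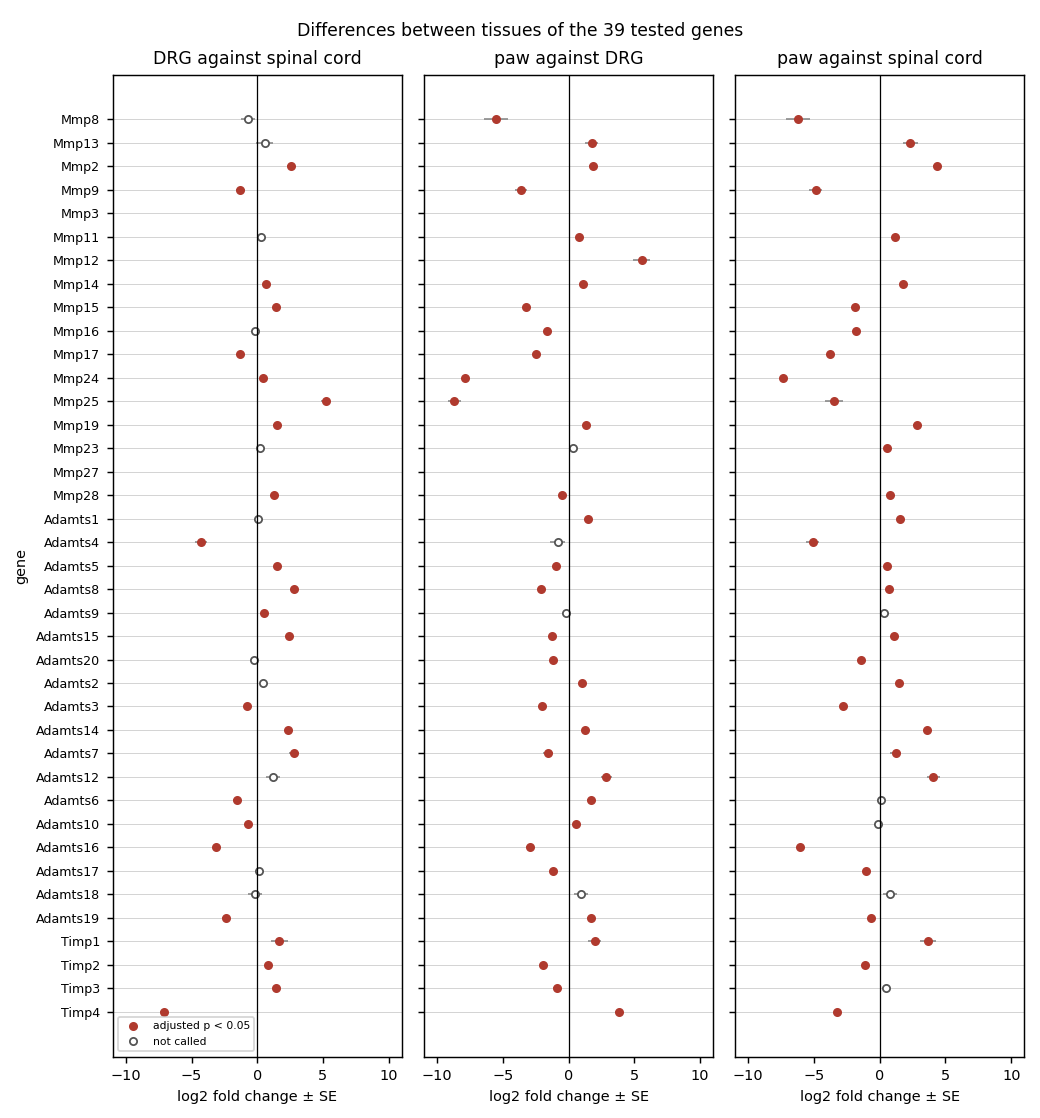
Log2 fold changes ± SE (horizontal axis) of the tested genes in the 3 comparisons, with calls at an adjusted p under 0.05 filled. Values are left out where a tissue had 3 reads or fewer (Mmp3, Mmp27 and Mmp12). Mmp24 and Mmp25 lie farthest below 0 in paw against DRG, and Timp4 farthest below 0 in DRG against the cord.

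Markers of fibroblasts and of several other cell types moved with many of these genes within tissues. The 6 markers summed to 3310.3, 2228 and 2249 CPM in DRG, 485, 385 and 1158 in the cord and 4614, 5918 and 5107 in paw, and all 6 were highest in spinal cord 3 within that tissue. The library spinal cord 3 was the highest of its tissue for 24 of the 39 tested members (61.5%, against 34.7% of all tested genes), among them Mmp2, Mmp19, Adamts5, Adamts7, Adamts15, Timp1 and Timp3. DRG 1, where all 6 fibroblast markers were highest in that tissue, was the highest DRG library for 20 of the 39 (51.3%, against 29.1%), again with Mmp2, Mmp19, Adamts5, Adamts7, Timp1 and Timp3 among them. Schwann and satellite glia markers summed to 7720.2, 7765 and 11422 CPM in the cord libraries. Other marker lists stood high in the same libraries. In DRG 1, 5 of 5 markers of the meninges, 6 of 7 of microglia and macrophages, 5 of 6 of Schwann and satellite glia and 4 of 5 of endothelium were highest in that tissue. In spinal cord 3, 4 of 5 of the meninges, 4 of 7 of microglia and macrophages, 4 of 6 of Schwann and satellite glia, 4 of 5 of endothelium and 6 of 7 of sensory neurons were. The part of RNA from any of these cell types in the levels was not tested.

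Other genes of the pathway, taken from 6 lists, differed in both directions as well. The counts below are read beside the shares of all tested genes, of which 29.0% were called higher and 30.6% lower in DRG than in the cord, 39.7% and 40.8% in paw against DRG, and 39.9% and 41.7% in paw against the cord. With 5 to 15 genes a list, they describe the lists and set none apart from that background. Of 7 tested genes tied to proenzyme activation or Mmp induction, 4 were called higher and 2 lower in DRG than in the cord. The counts were 3 and 3 in paw against DRG, and 4 and 3 in paw against the cord. Furin, the convertase that cleaves membrane-type Mmps and Adamts proenzymes, was at 70.0 ± 7.98 CPM in DRG, 56.7 ± 4.95 in the cord and 185 ± 11.8 in paw, above DRG by 1.40 ± 0.11 (adjusted p = 1.93e-07). Pcsk6, a related convertase, was at 50.5 ± 9.01, 57.2 ± 7.88 and 89.4 ± 10.3 CPM, also highest in paw (0.82 ± 0.15, adjusted p = 0.000284, paw against DRG). Plat, tissue plasminogen activator, was lower in paw than in the cord (−1.57 ± 0.14, adjusted p = 5.19e-07), and so was Bsg, the Mmp inducer basigin (−0.67 ± 0.10, adjusted p = 4.62e-05).

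Of 5 tested inhibitors and clearance genes outside the Timps, 2 were called higher and 3 lower in DRG than in the cord, 1 and 1 in paw against DRG, and 2 and 3 in paw against the cord. Reck, a membrane-bound inhibitor of Mmps, was at 28.1 ± 4.86, 20.1 ± 4.88 and 32.3 ± 1.71 CPM, lowest in the cord (0.48 ± 0.17, adjusted p = 0.0278, DRG against the cord). Lrp1, the receptor that clears Mmps and Timps from the cell surface, was at 369.7 ± 90.9, 717 ± 228 and 489.6 ± 38.9 CPM, lower in DRG than in the cord (−0.95 ± 0.23, adjusted p = 0.00399). Serpine2, protease nexin-1, was at 135 ± 7.87, 412 ± 40.4 and 109 ± 25.3 CPM and was lower in DRG than in the cord (−1.61 ± 0.16, adjusted p = 4.57e-06).

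Of 15 matrix substrates, 7 were called higher and 5 lower in DRG than in the cord, 5 and 6 in paw against DRG, and 8 and 4 in paw against the cord, where 59.6%, 80.5% and 81.6% of all tested genes were called. Col3a1, a fibrillar collagen, was at 306 ± 112 CPM in DRG, 67.7 ± 41.7 in the cord and 1704 ± 302 in paw, above DRG by 2.48 ± 0.44 (adjusted p = 0.000705). Col1a2 was at 841 ± 185, 217 ± 132 and 994 ± 147 CPM, above the cord in paw by 2.19 ± 0.39 (adjusted p = 0.000614) and not called between paw and DRG (adjusted p = 0.565). The basement membrane collagens Col4a1 and Col4a2 were lower in paw than in DRG (−1.33 ± 0.32, adjusted p = 0.00429 and −1.14 ± 0.24, adjusted p = 0.00129). In the list of 5 procollagen processing genes, 3 passed as higher and 0 as lower in DRG than in the cord, 2 and 2 in paw against DRG, and 3 and 1 in paw against the cord. Bmp1, the procollagen C-proteinase, was at 49.5 ± 7.02, 59.2 ± 3.08 and 129.9 ± 12.9 CPM, above DRG in paw by 1.39 ± 0.12 (adjusted p = 4.00e-07). Pcolce, its enhancer, was higher in paw than in the cord (1.79 ± 0.30, adjusted p = 0.000407). The related proteases Tll1 and Tll2 were lower in paw than in DRG (−1.17 ± 0.23, adjusted p = 0.000645 and −1.48 ± 0.54, adjusted p = 0.0244).

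Among 7 Adamts-like genes, whose proteins lack the protease part, 3 were called higher and 1 lower in DRG than in the cord, 3 and 3 in paw against DRG, and 3 and 3 in paw against the cord. Adamtsl4, which binds fibrillin, was at 24.7 ± 2.43 CPM in DRG, 63.1 ± 12.6 in the cord and 36.1 ± 3.03 in paw, lower in DRG than in the cord (−1.36 ± 0.15, adjusted p = 1.07e-05). Adamtsl5 had the reverse, at 55.1 ± 12.8, 20.0 ± 7.29 and 23.7 ± 5.67 CPM (1.47 ± 0.28, adjusted p = 0.00132). Of 8 tested Adam genes, the membrane-bound relatives that shed cell surface proteins, 4 were called higher and 1 lower in DRG than in the cord, 4 and 3 in paw against DRG, and 3 and 1 in paw against the cord. Adam10, the main sheddase of Notch, was at 263 ± 68.4 CPM in DRG, 100.2 ± 23.6 in the cord and 105 ± 2.46 in paw. Its level was higher in DRG than in the cord (1.39 ± 0.20, adjusted p = 0.000162) and lower in paw than in DRG (−1.33 ± 0.20, adjusted p = 0.000112). Adam15 had the opposite order, at 146 ± 14.0, 198 ± 14.3 and 181 ± 20.0 CPM (−0.44 ± 0.11, adjusted p = 0.00444, DRG against the cord).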

How the data were processed

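From roughly 500 ng of total RNA, per the labels' protocols, poly(A) RNA was made into stranded TruSeq libraries and read as single ends of 50 bp. The submitters' processing notes list bcl2fastq, TopHat2, HTSeq and mm9. The gene models, the strand setting and all versions: not given in the sources used here, which makes genes that overlap on opposite strands uncertain. The authors deposited raw counts of reads per gene. The 5 summary rows were left out. They held 42.9 to 43.3% of file totals in DRG, 46.2 to 47.7% in the cord and 58.1 to 59.3% in paw. Reads without a unique alignment made up 31.9 to 32.8%, 33.1 to 35.5% and 46.9 to 47.6%. This difference goes with tissue, and its part in the paw comparisons was not tested. Groups are the tissues that the titles name. No 2 libraries of a tissue agreed within sampling noise.

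Counts of all 9 libraries were fitted in edgeR 4.0.16 (R 4.3.3) with tissue as the factor, filterByExpr, TMM factors, robust glmQLFit and glmQLFTest. CPM use TMM sizes. The fit leaves 6 residual degrees of freedom, and the standard error is the fold change divided by the square root of F. Alternatives used limma 3.58.1 and DESeq2 1.42.0, other scalings, no filter, a replicate block and left-out libraries. Members and lists were chosen with earlier results of these data known. Genes with at least 5 CPM in a tissue, or called at least 2-fold with at least 1 CPM, are named with values, and others with reads. From each list the most expressed genes called higher and lower are named, up to 4. The spread rule names a gene whose highest library is at least 3 times its lowest where its mean is at least 1 CPM. Lengths and promoters come from GRCm38 tables, not from the mm9 build of the files. Intervals and floors cover counting error only. Values of 2 genes outside the 3 families are not reported here.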

Additional observations from a re-analysis of the deposited data

How the results depend on the processing

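Counts of called members moved by less than 1.5 times under all alternatives. Leaving out each library in turn gave 23 to 26 called members between DRG and spinal cord, 34 to 36 between paw and DRG and 30 to 34 between paw and spinal cord, and the other alternatives gave 23 to 28, 34 to 36 and 31 to 35. The pathway lists together had 35, 36 and 38 calls, and between 32 and 42 under the alternatives. Of 94 calls of single members, 83 were kept under every alternative run. The 11 lost under at least 1 were Adamts9, Mmp24, Mmp9 and Timp1 (DRG against spinal cord), Mmp28 (paw against DRG), and Adamts5, Adamts7, Adamts8, Adamts17, Adamts19 and Mmp23 (paw against spinal cord), and the cause was not tested. Upper quartile factors moved the median of all genes to −0.07, 0.10 and 0.05.

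The log2 fold changes that changed sign had not been called. With each library left out in turn, those of DRG against spinal cord ran from −0.063 to 0.32 for Adamts1 (and −0.035 without DRG 1), from −0.046 to 0.28 for Adamts17, from −0.12 to 0.91 for Mmp13, from −0.059 to 0.33 for Mmp23 and from −1.23 to 0.069 for Mmp8, and that of paw against spinal cord from −0.18 to 0.013 for Adamts10. Without DRG 2 and spinal cord 3 together, Adamts20 was at 0.15 and Mmp13 at −0.047 (DRG against spinal cord). Without spinal cord 1 and 3, Adamts20 was at 0.075, Mmp8 at 0.63 and Adamts10 (paw against spinal cord) at 0.082. What the replicate numbers mark is not stated. Deviations of same-numbered samples of different tissues correlated at −0.13 to 0.27, and those of differently numbered samples at −0.45 to 0.34. With 3 samples per tissue, such values cannot show whether same-numbered samples came from the same mouse. With the number as a replicate block, called members stayed at 25, 35 and 34, losing Timp1 between DRG and spinal cord (adjusted p = 0.0668) and Mmp23 between paw and spinal cord (adjusted p = 0.0598), and gaining Mmp12 (adjusted p = 0.0102) and Timp3 (adjusted p = 0.0335) in the same comparisons. The lists had 35, 36 and 36 calls. Few reads per gene limit the 7 untested genes and Mmp27, Mmp13 and Adamts18.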
